A study of Homo sapiens with 6 samples.

Results

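The genes described here are the ligands and receptors of the tumour necrosis factor (TNF) superfamily, measured in RNA of cells labelled HCT116, a human colorectal carcinoma line. They were chosen by name, as all genes whose symbol on the array platform starts with TNFSF or TNFRSF together with TNF, LTA, LTB, LTBR, CD40, CD40LG, CD27, CD70, FAS, FASLG, NGFR, EDAR, EDA2R and RELT, and only probe sets assigned to a single gene were used. This gave 43 genes, 15 ligands and 28 receptors, with 89 probe sets, of 18132 genes tested. CD40LG, TNFSF13 and TNFRSF6B had no probe set of that kind and were not tested. The study hybridised total RNA to 6 Affymetrix arrays, 3 of cells labelled as control (Ctrl) and 3 of cells labelled CSF3, the gene of granulocyte colony-stimulating factor. Both groups are the same line grown in a serum-containing medium, and the labels tell neither how CSF3 was altered or supplied nor whether the arrays of a group stand for separate cultures, so p-values measure the spread between these arrays, which may be technical. CSF3 itself read 5.13, 4.85 and 4.52 (log2 signal) in the Ctrl samples and 5.97, 5.91 and 5.99 in those labelled CSF3, without overlap, a rise of 1.12 ± 0.14 SE (adjusted p = 0.000371 in limma, a linear model fitted across all genes).

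TNF ligands are mostly membrane proteins that act as trimers and can be shed from the cell surface, and they bind receptors of the matching superfamily on the same or another cell. Receptors with a cytoplasmic death domain can assemble caspase-activating complexes or, through adaptors, activate NF-κB, whereas receptors without it bind TRAF adaptors directly, and decoy receptors bind ligand without passing on the full signal. In the colon the family is known for inflammatory signalling through TNF and for killing of epithelial cells by FAS ligand and TRAIL, and many other members belong to the exchange between lymphocytes.

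Ligand genes read mostly higher on the CSF3 arrays, and 5 of the 8 death domain receptors read lower. At a limma adjusted p under 0.05, 13 of the 15 ligands rose and 0 fell, while 13 of the 28 receptors rose and 7 fell. Of all 43 members 26 rose, 7 fell and 10 passed in neither direction, where 45.4% of all genes rose and 27.1% fell. The groups of 34 members did not overlap, against 76.2% of all genes, a share near that background. The median change of the members was 0.33 (log2, CSF3 minus Ctrl), and that of all genes was 0.16. The changes were small: 0 members passed a 2-fold change on their main probe set, as did 0.645% of all genes upward and 3.37% downward, and the members ran from -0.59 for FAS to 0.83 for TNFRSF11B. Standard errors of the members lay between 0.05 and 0.19.

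The share of rises depended on the signal level, on these arrays for genes at large and for the members alike. Of genes below the median level 63.6% rose and 7.49% fell, and of genes above it 27.1% rose and 46.8% fell. Of the 25 members below the median level 19 rose and 0 fell, counts to be read against those shares, and 11 of the 15 ligands were among these dim genes. Of the 18 members above the median level 7 rose and 7 fell. After quantile normalization of the 6 arrays, which gives all of them one distribution, 19 members rose and 2 fell, against 39.2% and 20.1% of all genes. Below the median level 10 members then rose and 1 fell, where 35.7% and 9.76% of genes did. Above it 9 rose and 1 fell, where 42.7% and 30.4% of genes did. Of the calls on the values as deposited, 17 of the 26 rises and 1 of the 7 falls, that of FAS, remained. Levels of different probe sets are signals and not amounts of RNA, so the division at the median describes brightness only. In RNA of a whole culture, fewer cells that express a gene and less of its RNA per cell cannot be told apart.

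**Figure D1:**
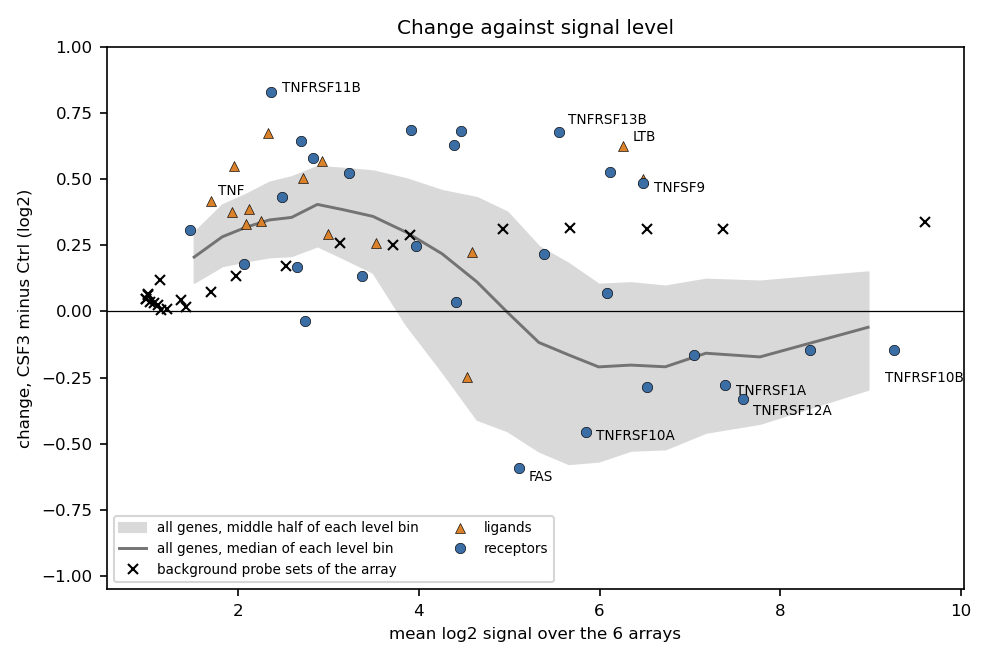
Change from Ctrl to CSF3 (log2, vertical axis) against the mean log2 signal over the 6 arrays (horizontal axis) for the 15 ligands and 28 receptors. The grey line and band give the median and the middle 50 percent of all genes in 20 level bins, and crosses are the array's own background probe sets. Most ligands lie at dim levels with changes like those of other dim genes, whereas LTB, TNFSF9 and TNFRSF13B lie above the band at bright levels and FAS lies below it.

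Several technical measures moved with the groups, and their part in the changes was not tested. The 18 probe sets for hybridisation controls had a median of 6.82 ± 0.07 in Ctrl and 8.36 ± 0.05 in CSF3 samples (SD, n = 3). The gap between the 3' and 5' probe sets of GAPDH was 0.306 ± 0.007 and 0.682 ± 0.003. Two-sided exact permutation gave p = 0.1 for both measures, and no smaller p is possible with 3 samples per group. The array also carries 23 background probe sets, sorted by the number of G and C bases in their probes. The 15 with up to 17 G or C changed by 0.0050 to 0.17 between the groups, and the 8 with more changed by 0.25 to 0.34, upward in every case. TNF, FASLG, TNFSF10, TNFSF11, TNFSF13B, TNFSF15, TNFRSF9 and TNFRSF17 had means at or below the background probe set with 17 G or C in both groups. The Ctrl means of TNFSF4, EDA2R, TNFRSF19 and TNFRSF11B lay below it too. The base composition of the members' own probes is not known here. It was therefore not settled whether the first 8 genes were detected, and 7 of them counted as rises. Background probe sets with more G or C read higher, with Ctrl means from 3.00 to 9.43. A mean above the one with 17 G or C is therefore no proof of detection.

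The labelled cell type was compared with marker genes. Of 12 markers of colonic epithelium, 3 lay above the median level of all genes: KRT18 read 7.26 ± 0.01 and KRT8 6.37 ± 0.05 on the Ctrl arrays (SD, n = 3), and CDX2 was just above the median. Of the 12, 6 rose and 2 fell: KRT8 fell by 1.32, a 2.49-fold difference, and EPCAM by 0.33. EPCAM and CDH1, which define epithelial cells, read 3.63 ± 0.05 and 2.20 ± 0.09 there, at percentiles 37.1 and 15 of all genes over the 6 arrays, and VIL1 and KRT19 read 1.43 ± 0.19 and 2.61 ± 0.12. In both groups EPCAM, CDH1, VIL1 and KRT19 read dim for the label of a colorectal epithelial line, while KRT18, KRT8 and CDX2 lay above the median. Signals of different probe sets are not amounts of RNA, and no reference sample was compared. Whether the cells match their label is not settled, so they are called by their label only. Of 11 measured markers of leukocytes, the cells in which many of these ligands are made, 7 rose and 1 fell. The log2 of their summed linear signals was 10.22 to 10.29 on the Ctrl and 10.00 to 10.05 on the CSF3 arrays. Most of that sum came from CD68, the marker that fell (10.11 ± 0.04 on Ctrl). PTPRC, the common leukocyte antigen, read 1.42 ± 0.07 on Ctrl and 1.66 ± 0.20 on CSF3. Of 7 fibroblast markers 5 rose and 0 fell, and of 5 endothelial markers 4 rose and 0 fell. The log2 of the summed signals was 5.31 to 5.35 against 5.73 to 5.85 for the fibroblast markers. For the endothelial markers it was 5.51 to 5.59 against 6.12 to 6.13. All 12 fibroblast and endothelial markers lay below the median level, where 63.6% of genes rose and 7.49% fell. Over all genes 45.4% rose and 27.1% fell, and the counts of markers are to be read against those shares.

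Because the title of the series names the p65 subunit of NF-κB, promoters of members were searched for the NF-κB consensus, a motif of 10 bases, and for the AP-1 site TGACTCA, on both strands of the 250 bases before the start of the gene (RefSeq, GRCh38.p14). An entry was found for 28 of the 43 members. The NF-κB consensus was present in 4 of these 28 promoters, or 14.3%, and in 9.57% of 27305 promoters of all genes, and the AP-1 site was present in 10.7% and 4.16%. By the tests described above, the NF-κB consensus was present in 2 of 20 promoters of members that rose, in 0 of 3 of members that fell and in 2 of 5 of members that passed no test. The promoters of 5 members are shown, 5′ to 3′ on the gene's strand, because they span the outcomes: LTB and TNFSF9, the bright ligands that rose, TNFRSF9, which did not pass the test, and FAS and TNFRSF1A, the receptors that fell. Capitals mark bases that match the NF-κB consensus.
LTB, chr6:31582426-31582675, minus strand: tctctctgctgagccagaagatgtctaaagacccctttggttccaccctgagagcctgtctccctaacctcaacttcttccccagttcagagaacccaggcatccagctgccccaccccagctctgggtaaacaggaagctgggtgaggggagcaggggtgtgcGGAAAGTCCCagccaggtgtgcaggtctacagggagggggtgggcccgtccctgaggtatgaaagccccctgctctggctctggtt
TNFSF9, chr19:6530776-6531025, plus strand: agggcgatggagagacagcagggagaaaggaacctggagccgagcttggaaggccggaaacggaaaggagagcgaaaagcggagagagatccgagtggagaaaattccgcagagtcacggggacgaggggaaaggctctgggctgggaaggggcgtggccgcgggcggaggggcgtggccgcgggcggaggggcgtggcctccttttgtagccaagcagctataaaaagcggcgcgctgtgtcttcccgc
TNFRSF9, chr1:7940840-7941089, minus strand: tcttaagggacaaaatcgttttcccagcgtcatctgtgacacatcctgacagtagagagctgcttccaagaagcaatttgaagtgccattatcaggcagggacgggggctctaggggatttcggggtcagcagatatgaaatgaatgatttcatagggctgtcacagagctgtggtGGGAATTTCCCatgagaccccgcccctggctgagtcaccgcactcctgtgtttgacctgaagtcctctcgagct
FAS, chr10:88990548-88990797, plus strand: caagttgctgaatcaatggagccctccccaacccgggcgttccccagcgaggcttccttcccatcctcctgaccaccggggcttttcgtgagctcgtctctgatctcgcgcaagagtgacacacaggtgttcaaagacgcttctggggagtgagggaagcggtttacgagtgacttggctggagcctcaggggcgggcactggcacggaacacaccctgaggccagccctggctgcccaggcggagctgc
TNFRSF1A, chr12:6342077-6342326, minus strand: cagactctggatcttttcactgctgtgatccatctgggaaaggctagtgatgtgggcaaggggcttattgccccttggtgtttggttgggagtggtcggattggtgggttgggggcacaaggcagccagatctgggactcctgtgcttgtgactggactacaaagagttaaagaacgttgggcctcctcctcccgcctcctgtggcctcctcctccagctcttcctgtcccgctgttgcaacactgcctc
In LTB the match lies at -86 to -77 from the start of the gene, and in TNFRSF9 a pair of overlapping matches lies at -74 to -64 with an AP-1 site at -44 to -38. The windows of TNFSF9, FAS and TNFRSF1A hold no match to either motif, which says nothing of sites elsewhere in these genes. A match is a description of sequence and not a bound site.

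Among the ligands of the TNF and lymphotoxin branch, lymphotoxin beta rose clearly and TNF itself was near background. LTB, which anchors lymphotoxin at the membrane and acts on LTBR, had log2 signals of 5.96, 5.94 and 5.95 on the Ctrl arrays and 6.64, 6.64 and 6.45 on the CSF3 arrays. All 3 CSF3 arrays lay above all 3 Ctrl arrays, and the change was 0.63 ± 0.07 SE, a 1.54-fold rise (limma adjusted p = 0.000189). It was 0.88 after quantile normalization, and the second, dimmer probe set rose by 0.42. TNF, the inflammatory cytokine that names the family, read 1.88, 2.05 and 1.86 on the Ctrl and 2.23, 2.30 and 2.43 on the CSF3 arrays. Its groups did not overlap, and its change of 0.39 ± 0.08 (limma adjusted p = 0.00357) was no more than 0.17 and did not pass once the arrays were quantile normalized (limma adjusted p = 0.0983). TNFSF14, the ligand LIGHT that also binds LTBR, rose by 0.26 ± 0.05 (limma adjusted p = 0.00421), but its dimmer probe set changed by -0.01. LTA, the soluble lymphotoxin, changed by 0.23 ± 0.10 (limma adjusted p = 0.0789) and passed without the third CSF3 array (0.30, limma adjusted p = 0.0345). After quantile normalization it also passed (0.37, limma adjusted p = 0.0198). The second, dimmer probe set of LTA rose by 0.45 (limma adjusted p = 0.000601).

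The death ligands were dim on every array. TNFSF10, which encodes TRAIL, read 1.48, 1.60 and 1.40 on the Ctrl and 1.91, 1.94 and 1.90 on the CSF3 arrays. These groups did not overlap, and the change was 0.42 ± 0.06 (limma adjusted p = 0.000924), or 0.22 after quantile normalization (limma adjusted p = 0.0195). FASLG, the ligand of FAS on cytotoxic lymphocytes, rose by 0.33 ± 0.09 (limma adjusted p = 0.0110), but not with quantile normalization (0.10, limma adjusted p = 0.350).

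All 5 co-stimulatory ligands, which activate receptors on T cells, rose, and 4 of them lay below the median level, where 63.6% of all genes rose. TNFSF9, the ligand of TNFRSF9, was the bright member of this group, with 6.20, 6.24 and 6.26 on the Ctrl and 6.66, 6.78 and 6.77 on the CSF3 arrays. The CSF3 arrays were all higher, and the gene rose 1.42-fold (0.50 ± 0.06, limma adjusted p = 0.000233). Its other probe set rose by 0.30, and quantile normalization raised the change to 0.75. Its receptor gene TNFRSF9 read 1.97 ± 0.19 and 2.15 ± 0.23 (SD, n = 3) and missed the threshold (0.18, 95% interval -0.14 to 0.50, limma adjusted p = 0.260). TNFSF8, the ligand of CD30, read 2.51, 2.53 and 2.37 on Ctrl against 3.11, 2.92 and 2.89 on CSF3, groups apart by a change of 0.51 ± 0.08 (limma adjusted p = 0.00101). CD70, the ligand of CD27, read 2.87, 2.93 and 2.75 against 3.11, 3.19 and 3.13 and rose by 0.29 ± 0.06 (limma adjusted p = 0.00475). Quantile normalization left CD70 at 0.13 (limma adjusted p = 0.0832). The ligands of OX40 and GITR, TNFSF4 and TNFSF18, rose by 0.68 ± 0.12 and 0.57 ± 0.14 from Ctrl means of 1.99 and 2.65, and the call of TNFSF18 was lost after quantile normalization (0.41, limma adjusted p = 0.0513).

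Of the remaining ligands, those of RANK (TNFSF11), of the B-cell survival receptors (TNFSF13B) and of TNFRSF25 (TNFSF15) rose by 0.38 ± 0.09, 0.55 ± 0.13 and 0.34 ± 0.07, all from Ctrl means of 2.08 or less. None of these 3 calls remained after quantile normalization (changes of 0.16, 0.34 and 0.12). TNFSF12, which encodes TWEAK, the ligand of TNFRSF12A, read 4.66 ± 0.09 on Ctrl and 4.41 ± 0.23 on CSF3 (SD, n = 3) and missed the threshold (-0.25 ± 0.12, limma adjusted p = 0.0849), though it passed without the third CSF3 array (-0.37, limma adjusted p = 0.00930). Its change after quantile normalization was -0.11 (limma adjusted p = 0.461). TNFSF12 was the ligand with a negative change on its main probe set.

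**Figure D2:**
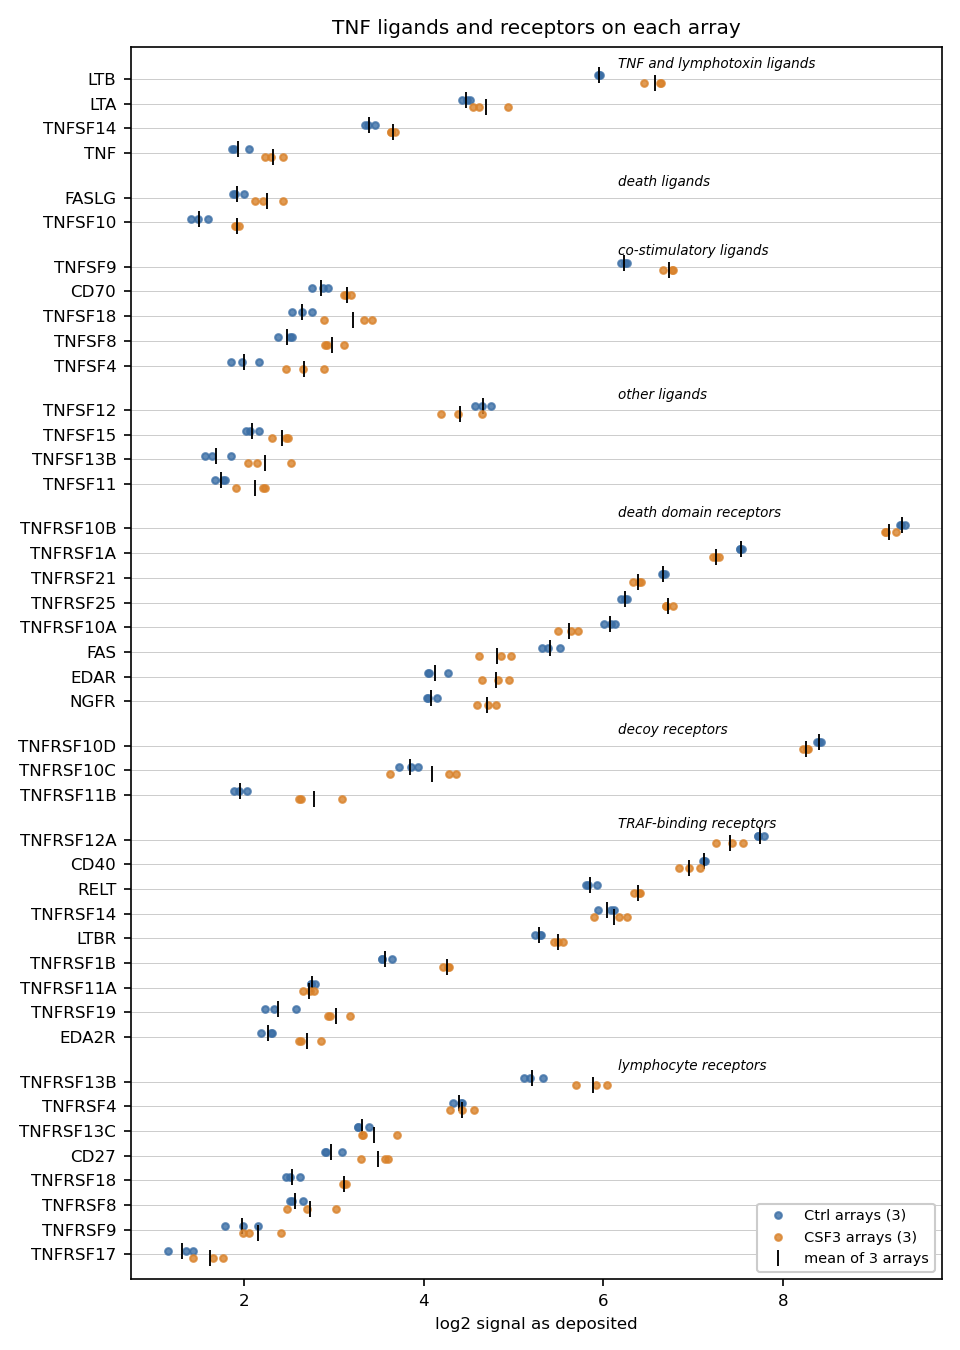
Log2 signal of the main probe set of each member on each of the 6 arrays (horizontal axis), by role, with Ctrl arrays in blue, CSF3 arrays in orange and group means as black ticks. On the CSF3 arrays FAS, TNFRSF10A, TNFRSF1A and TNFRSF21 lie left of their Ctrl values, and LTB, TNFSF9, RELT and TNFRSF25 lie right of them with no overlap.

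Of the 8 death domain receptors 5 fell and 3 rose, and 7 of the 8 lay above the median level, where 46.8% of all genes fell and 27.1% rose. The 5 called lower are known as receptors of TNF, FAS ligand and TRAIL, together with TNFRSF21, and they include TNFRSF10B, whose direction is not settled. FAS, the receptor of FAS ligand, read 5.32, 5.51 and 5.38 on the Ctrl arrays and 4.97, 4.62 and 4.86 on the CSF3 arrays. Its groups did not overlap, and it fell by 0.59 ± 0.10, a 1.51-fold difference (limma adjusted p = 0.00150). Its second probe set changed by -0.37, and after quantile normalization the main one changed by -0.38 (limma adjusted p = 0.0141). It was the member whose fall held under all 13 alternatives tried. TNFRSF10A, a receptor of TRAIL with a single probe set, read 6.089, 6.004 and 6.130 against 5.499, 5.641 and 5.714. The CSF3 arrays were all lower, with a change of -0.46 ± 0.07 (limma adjusted p = 0.00110), and after quantile normalization it was -0.19 and did not pass (limma adjusted p = 0.0580).

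TNFRSF1A, the receptor through which most cells respond to TNF, read 7.52, 7.54 and 7.53 on the Ctrl and 7.22, 7.29 and 7.25 on the CSF3 arrays. The groups were apart, and the change was -0.28 ± 0.05 (limma adjusted p = 0.00185), or -0.07 after quantile normalization (limma adjusted p = 0.234). Its 4 probe sets did not move alike: 3 fell, those 2 of middle brightness by 0.81 and 0.89, while the dimmest rose by 0.23. TNFRSF21, known as death receptor DR6, read 6.65, 6.67 and 6.69 against 6.42, 6.40 and 6.33, with no overlap. It changed by -0.29 ± 0.05 (limma adjusted p = 0.00210), and its other probe sets by -1.13 and -0.36. The call on its main probe set was lost after quantile normalization (-0.04, limma adjusted p = 0.556).

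TNFRSF10B, the other signalling receptor of TRAIL, has no settled direction here. Its main probe set read 9.32, 9.36 and 9.31 on the Ctrl and 9.27, 9.14 and 9.15 on the CSF3 arrays, a change of -0.15 ± 0.06 at the edge of the threshold (limma adjusted p = 0.0499). The groups were narrowly apart. Tested among all single-gene probe sets that change did not pass (limma adjusted p = 0.0676), and another probe set of the gene, with 5.43 on Ctrl and 6.01 on CSF3, rose by 0.58. The call on the main probe set was lost without any one of the Ctrl arrays or without the second or the third CSF3 array, with changes of -0.12 to -0.16 (limma adjusted p from 0.0985 to 0.147).

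The 3 death domain receptors that rose are known from T cells, the nervous system and the skin appendages. TNFRSF25, the receptor of TNFSF15 on T cells, read 6.20, 6.27 and 6.25 on Ctrl and 6.78, 6.70 and 6.70 on CSF3, all higher, a rise of 0.49 ± 0.05 (limma adjusted p = 0.000202). Its dimmer probe set, however, changed by 0.16 and did not pass. NGFR, the low-affinity receptor of nerve growth factor, read 4.03, 4.04 and 4.15 against 4.59, 4.81 and 4.71. It rose by 0.63 ± 0.07 with no overlap (limma adjusted p = 0.000270). EDAR, the receptor of ectodysplasin in hair and tooth development, read 4.04, 4.27 and 4.06 against 4.83, 4.95 and 4.65, again without overlap, and rose by 0.68 ± 0.10 (limma adjusted p = 0.000706). The second probe sets of NGFR and EDAR also rose, by 0.31 and 0.36.

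The decoy receptors did not move together. TNFRSF11B, which encodes osteoprotegerin, the soluble decoy of the ligand TNFSF11, had the largest change of all 43 members on the main probe sets, from 1.88, 2.03 and 1.94 to 2.63, 2.61 and 3.09. The groups were well apart, and the rise was 0.83 ± 0.13 (limma adjusted p = 0.00106), or 0.61 after quantile normalization (limma adjusted p = 0.00657). It started from a dim level: the Ctrl mean of 1.95 lay below the background probe set with 17 G or C (2.44). The CSF3 mean of 2.78 lay above that probe set (2.61). TNFRSF10D, a TRAIL receptor with a truncated death domain, read 8.40 ± 0.02 and 8.26 ± 0.03 (SD, n = 3), a change of -0.15 ± 0.05 (limma adjusted p = 0.0293) that was 0.0054 after quantile normalization, while its dimmer probe set fell by 0.90. The call was lost without any one Ctrl array or the second CSF3 array (-0.13 to -0.16, limma adjusted p from 0.0599 to 0.0981). TNFRSF10C, the TRAIL decoy without a cytoplasmic domain, read 3.84 ± 0.11 and 4.09 ± 0.41 and did not pass (0.25 ± 0.19, limma adjusted p = 0.257). Without the second CSF3 array, its lowest, it passed (0.48, limma adjusted p = 0.00238).

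**Figure D3:**
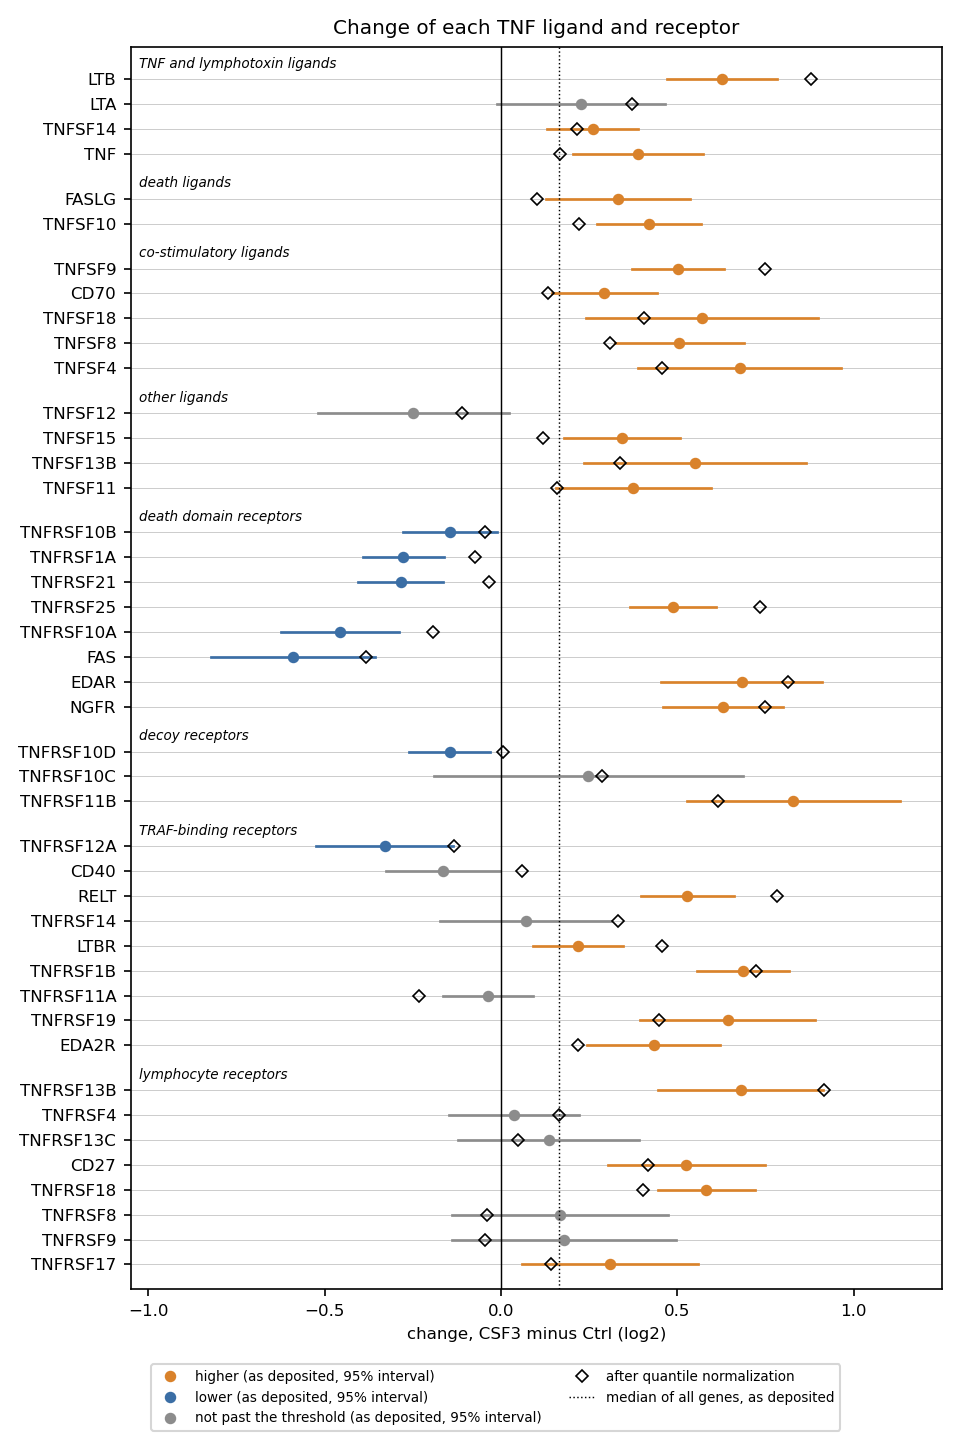
Change of each member from Ctrl to CSF3 (log2, horizontal axis) with its 95% confidence interval as deposited, by role, with diamonds for the change after quantile normalization and a dotted line for the median of all genes (0.16). Diamonds lie right of the filled points for LTB, FAS and TNFRSF1A and left of them for TNF, TNFSF10 and TNFRSF19, and FAS moves to -0.38.

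Of the 9 receptors that bind TRAF adaptors without a death domain 5 rose, 1 fell and 3 passed in neither direction. Among all genes 45.4% rose and 27.1% fell, and 4 of these 9 receptors lay below the median level. TNFRSF1B, the second TNF receptor, which is found mainly on leukocytes and endothelium, read 3.53, 3.64 and 3.53 on Ctrl and 4.28, 4.22 and 4.27 on CSF3. All CSF3 arrays were higher, and the change of 0.69 ± 0.06 had the smallest p of all members (limma adjusted p = 6.05e-05). It was 0.72 after quantile normalization, and its dimmer probe sets changed by 0.33 and 0.14, the latter not past the threshold. RELT, a receptor of lymphoid tissue, read 5.83, 5.93 and 5.81 against 6.41, 6.34 and 6.40, with no overlap. It rose by 0.53 ± 0.06 (limma adjusted p = 0.000194), and by 0.59 on its other probe set. LTBR, the receptor of lymphotoxin and LIGHT that activates the alternative NF-κB pathway, read 5.24, 5.30 and 5.31 against 5.56, 5.49 and 5.45 and rose by 0.22 ± 0.05 (limma adjusted p = 0.00915). Its groups were apart, and its other probe set changed by 0.10 without passing. TNFRSF19, known as TROY and expressed in stem cells, read 2.23, 2.33 and 2.57 against 3.17, 2.95 and 2.94. It rose by 0.64 ± 0.11 without overlap (limma adjusted p = 0.00136), and all 3 of its probe sets rose. EDA2R, a receptor of an ectodysplasin isoform, rose by 0.43 ± 0.08 (limma adjusted p = 0.00238), but missed the threshold with quantile normalization (0.22, limma adjusted p = 0.0521).

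TNFRSF12A, the receptor of TWEAK, was the member of this group that fell. It read 7.72, 7.80 and 7.72 on Ctrl and 7.56, 7.44 and 7.25 on CSF3, so the CSF3 arrays were lower and more scattered. The change of -0.33 ± 0.08 (limma adjusted p = 0.00877) became -0.13 after quantile normalization (limma adjusted p = 0.168). CD40, the receptor by which antigen-presenting cells respond to T cells, read 7.11, 7.13 and 7.14 against 6.95, 6.84 and 7.08. Its groups were apart and its change of -0.17 ± 0.07 did not pass (limma adjusted p = 0.0616), whereas its second probe set fell by 0.26. Without the third CSF3 array its main probe set passed (-0.23, limma adjusted p = 0.0156). After quantile normalization that probe set changed by 0.06 and did not pass (limma adjusted p = 0.459). TNFRSF14, the LIGHT receptor HVEM, and TNFRSF11A, which encodes RANK, did not pass (0.07 ± 0.10 and -0.04 ± 0.05). The 7 probe sets of TNFRSF14 ranged from -0.30 to 0.48, with 1 called higher and 2 called lower. After quantile normalization TNFRSF14 rose (0.33, limma adjusted p = 0.0356) and TNFRSF11A fell (-0.23, limma adjusted p = 0.0110).

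Of the 8 receptors known mainly from lymphocytes 4 rose and 0 fell. Below the median level, where 7 of the 8 lay, 63.6% of all genes rose and 7.49% fell. TNFRSF18, which encodes GITR, a receptor of regulatory T cells, read 2.51, 2.62 and 2.46 on Ctrl and 3.11, 3.10 and 3.14 on CSF3, groups clearly apart (0.58 ± 0.06, limma adjusted p = 0.000152). TNFRSF13B, the receptor TACI of B cells, read 5.18, 5.12 and 5.32 against 5.69, 6.04 and 5.92. The CSF3 arrays were all higher, with a rise of 0.68 ± 0.10 (limma adjusted p = 0.000811), and 3 of its 4 probe sets rose. CD27 rose by 0.52 ± 0.09 from 2.97 ± 0.11 (SD, n = 3). TNFRSF17, the plasma cell receptor BCMA, read 1.31 ± 0.15 and 1.62 ± 0.17 with overlapping groups (0.31 ± 0.11, limma adjusted p = 0.0329), and its call was lost without the second or the third Ctrl array or the first or the second CSF3 array (0.23 to 0.33, limma adjusted p from 0.0634 to 0.108). Quantile normalization also ended the TNFRSF17 call (0.14, limma adjusted p = 0.284). TNFRSF4, TNFRSF8, TNFRSF9 and TNFRSF13C, with changes of 0.04, 0.17, 0.18 and 0.13, did not pass the test, and each had overlapping groups. Without the first CSF3 array TNFRSF8 passed (0.29, limma adjusted p = 0.0494). The second, dimmer probe set of TNFRSF8 rose by 0.30 (limma adjusted p = 0.00866), and the mean of its probe sets passed (0.23, limma adjusted p = 0.0458). After quantile normalization its main probe set changed by -0.04 (limma adjusted p = 0.813).

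Ligands and their receptors could be set side by side. LTB and LTBR both rose, as did TNFSF14 with LTBR, CD70 with CD27, TNFSF15 with TNFRSF25 and TNFSF18 with TNFRSF18. TNFSF4, TNFSF8, TNFSF9, TNFSF11 and TNFSF14 rose, while their receptor genes TNFRSF4, TNFRSF8, TNFRSF9, TNFRSF11A and TNFRSF14 did not pass on their main probe sets. TNF rose with TNFRSF1B, while TNFRSF1A fell. FASLG rose and FAS fell, and TNFSF10 rose while its receptor TNFRSF10A fell. TNFSF11 also rose with its decoy TNFRSF11B, and not every pair is listed here. TNF, FASLG, TNFSF10, TNFSF11 and TNFSF15 read at background level, so their detection is not settled. Most ligands lay below the median level, where 63.6% of all genes rose. After quantile normalization both calls of LTB with LTBR and of TNFSF14 with LTBR remained. The calls of TNF, FASLG, TNFSF11, TNFSF15, CD70, TNFSF18, TNFRSF1A and TNFRSF10A were lost. These are differences of RNA signal, and protein at the cell surface was not measured.

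Members that are neighbours in the genome moved alike in some places and not in others. With neighbours defined as members at most 100 kb apart in RefSeq, 19 members formed 7 groups. TNFSF9, CD70 and TNFSF14 on chromosome 19 all rose, as did TNFSF15 and TNFSF8 on chromosome 9. TNF and LTB rose in the lymphotoxin cluster of chromosome 6, whose other member LTA did not pass on its main probe set. TNFRSF1A fell on chromosome 12, where its neighbours LTBR and CD27 rose. Of the 4 neighbouring TRAIL receptor genes 3 were called lower and 1 was not called. The falls of TNFRSF10A, TNFRSF10B and TNFRSF10D did not pass after quantile normalization, and the direction of TNFRSF10B is not settled. These counts are to be read against all genes: 63.6% of those below the median level rose, and 46.8% of those above it fell.

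Where several probe sets of a member were called, most were alike in direction, though not always in size. Over all 89 probe sets of the members, tested among 44988 single-gene probe sets, 49 rose and 15 fell, where 36.7% of all probe sets rose and 28.8% fell. Of the 31 members with several probe sets, 2 had probe sets called in opposite directions, TNFRSF1A and TNFRSF14. Another 19 had several called probe sets that all moved one way, and the share of such genes over the array is not given here. Sizes could differ, as for TNFRSF10D (-0.15 and -0.90) and TNFRSF21 (-0.29, -0.36 and -1.13). TNFRSF10B was called lower among genes, but in this fit its main probe set did not pass and another was called higher (0.58). Of the 43 main probe sets 9 have names ending in _x_at or _s_at, among them those of TNFRSF10B, TNFRSF1A, TNFRSF1B and TNFRSF13B, and such probe sets can hybridise with more than 1 transcript.

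**Figure D4:**
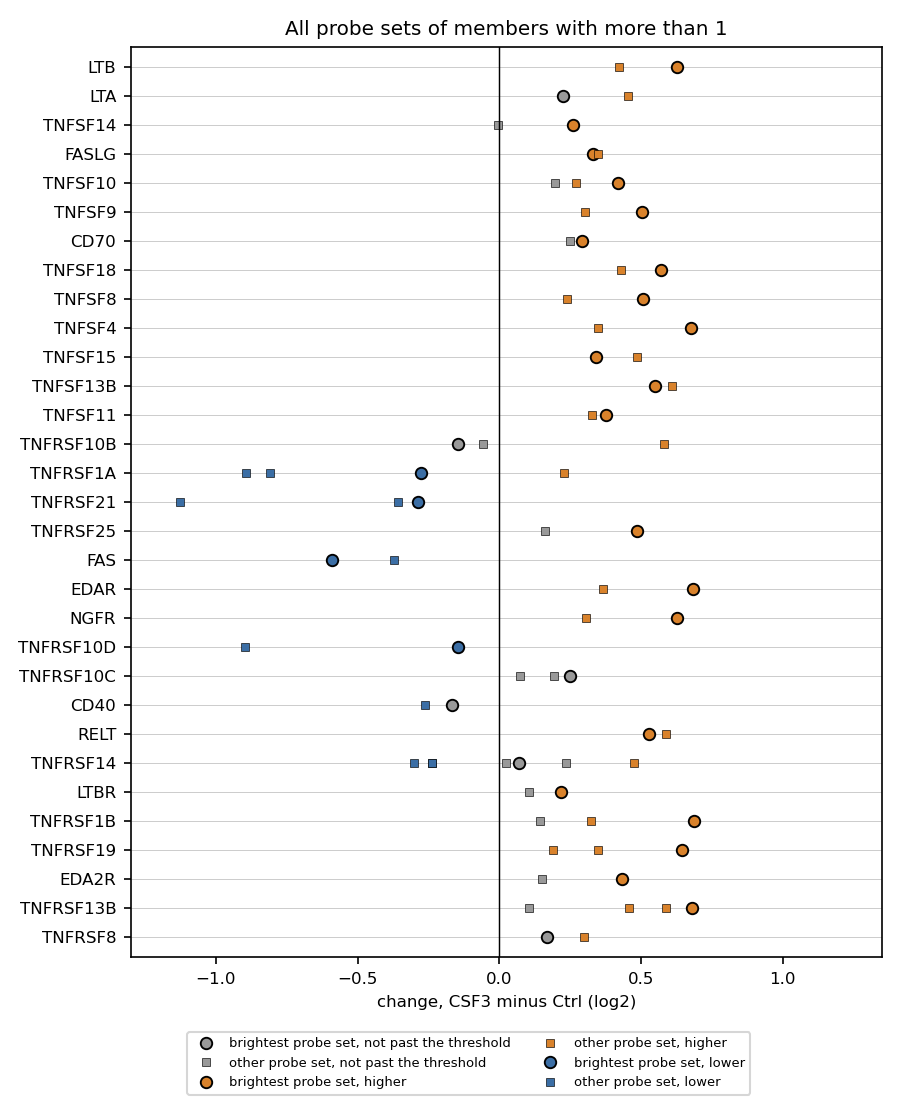
Change from Ctrl to CSF3 (log2, horizontal axis) of every probe set of the 31 members with several, with circles for the brightest and squares for the others, coloured by the call among all single-gene probe sets. The probe sets of TNFRSF1A, TNFRSF14, TNFRSF10B and TNFSF14 lie on both sides of 0, and both probe sets of FAS lie below it.

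Genes that carry the signal below these receptors fell more often than they rose. Of 49 measured adaptors, kinases, ubiquitin ligases, caspases, inhibitors and shedding proteases, 11 rose, 21 fell and 17 did not pass, where 45.4% of all genes rose and 27.1% fell, with a median change of -0.15. Most of them, 41, lay above the median level, and 8 of these rose and 21 fell, near the 27.1% and 46.8% of bright genes. After quantile normalization 14 of the 49 rose and 15 fell, where 39.2% of all genes rose and 20.1% fell. Among genes above the median level 42.7% then rose and 30.4% fell. The median of the signalling genes turned to 0.038. TNFAIP3, the feedback inhibitor A20 of NF-κB, had the largest change of these genes, 1.45 ± 0.08. PIDD1, EDARADD, MAP3K14, TRAF6 and CYLD rose by 0.61 ± 0.06, 0.55 ± 0.06, 0.42 ± 0.06, 0.53 ± 0.07 and 0.43 ± 0.07. EDARADD encodes the adaptor of EDAR, and MAP3K14 the kinase NIK through which LTBR and CD40 reach the alternative NF-κB pathway. CYLD, a deubiquitinase that limits NF-κB, turned to -0.17 as the mean of its probe sets (limma adjusted p = 0.0244).

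Among the falls were both proteases that shed ligands and receptors of the family. ADAM10 read 5.54, 5.54 and 5.68 on Ctrl and 4.59, 4.20 and 4.36 on CSF3, all lower, a change of -1.20 ± 0.10 (limma adjusted p = 7.04e-05). ADAM17, which releases soluble TNF, fell by 0.62 ± 0.06 (limma adjusted p = 0.000102) and was chosen for mention after its value was seen. TRAF5, TRAF3 and MAP3K7, which lie between receptors and NF-κB, changed by -0.87 ± 0.05, -0.87 ± 0.07 and -1.07 ± 0.07. MLKL, the executioner of necroptosis, and XIAP, an inhibitor of caspases, fell by 0.63 ± 0.05 and 0.58 ± 0.05. In limma the adjusted p of these 5 was at most 7.34e-05, and each kept its call after quantile normalization. In the death-inducing complex, FADD, the adaptor of FAS, fell by 0.30 ± 0.07 (limma adjusted p = 0.00602), though not with quantile normalization (-0.04), and CFLAR, the inhibitor of caspase activation at the receptor, rose by 0.23 ± 0.07 (limma adjusted p = 0.0161). The CFLAR call was lost without the first Ctrl array (0.17, limma adjusted p = 0.0524). CASP8 and TRADD, the initiator caspase and the adaptor of TNFRSF1A, did not pass (-0.12 ± 0.11 and -0.15 ± 0.08). CASP8 passed without the third CSF3 array (-0.23, limma adjusted p = 0.0472) and TRADD without the second (-0.23, limma adjusted p = 0.0219). After quantile normalization neither passed (0.06 and 0.04, limma adjusted p = 0.676 and 0.734). The mean of the CASP8 probe sets passed as a fall (-0.20, limma adjusted p = 0.0269). The mean of the TRADD probe sets passed as a rise (0.16, limma adjusted p = 0.0108), so the direction of TRADD is not settled.

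**Figure D5:**
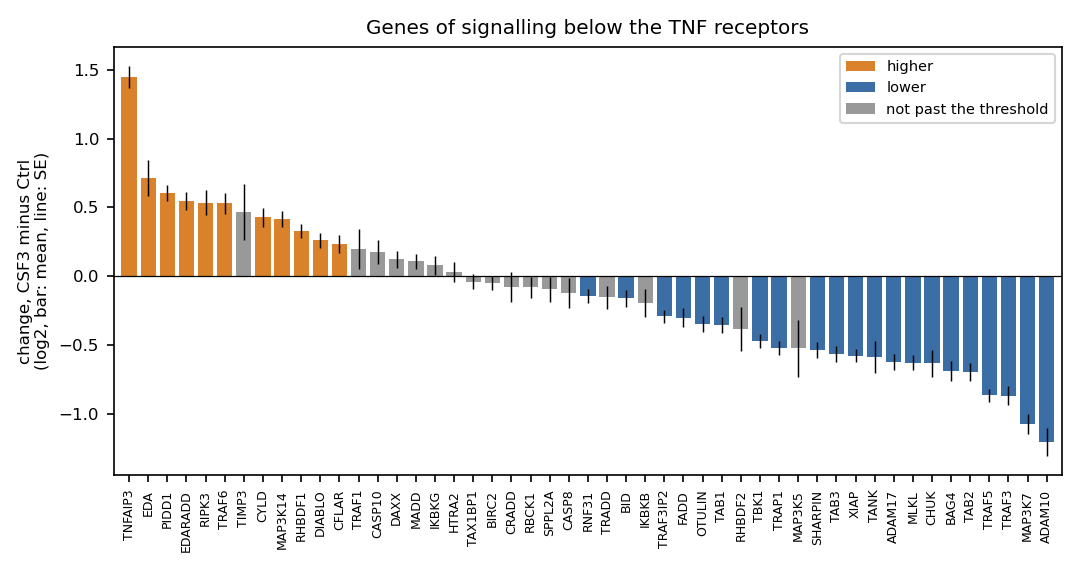
Change from Ctrl to CSF3 (log2, vertical axis) of the 49 measured signalling genes, as bars of the mean difference with lines of 1 SE, coloured by the call among all genes. TNFAIP3 stands highest at 1.45, and ADAM10 and MAP3K7 stand lowest at -1.20 and -1.07.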

How the data were processed

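Total RNA labelled with biotin was hybridised to 6 Affymetrix arrays, 3 Ctrl and 3 CSF3. The authors deposited log2 values of 49395 probe sets, as far as the values show. The base of the logarithm, background correction, summarisation and scaling were, for these values, not given in the sources used here, and folds assume base 2. Probe sets with 1 gene symbol in the platform annotation (44988) were kept, and the one with the highest mean over the 6 arrays was the main probe set of its gene. All 43 members matched RefSeq by Entrez identifier. CSF3 minus Ctrl was fitted on all 18132 genes with limma 3.58.1 (lmFit, eBayes; R 4.3.3), two-sided, with no filter or covariate, p-values adjusted by Benjamini and Hochberg's method and a threshold of 0.05, and likewise on all single-gene probe sets. The fit was tested on simulated data. Values are means ± SD of 3 arrays and changes are given ± SE. The number of arrays limits the precision, and no detection calls were used.

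Members and gene lists were chosen with earlier results of these data known. The rule named every member and gave all 6 values for 13 chosen members (a chosen 14th, TNFRSF6B, was not tested) and for the 10 others with the smallest p. Of 55 listed signalling genes, it named the 6 rises and 6 falls with the smallest p and TRADD, FADD, CASP8 and CFLAR, and RIPK1 was not analysed here. Alternatives were quantile normalization, subtracting array medians, leaving out the 30% dimmest genes, averaging probe sets, trend and robust eBayes, array weights, a block for the replicate number and leaving out each array in turn.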

Additional observations from a re-analysis of the deposited data

How the results depend on the processing

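Of 43 members, 16 of the 26 rises and 1 of the 7 falls, FAS, kept call and direction under every alternative in which they were tested. With quantile normalization 2 members fell, both receptors, and 7 ligands rose, where 39.2% of all genes rose and 20.1% fell. Median changes were then 0.22 for the members and 0.038 for the signalling genes, whose median was -0.15 as deposited. In that setting 32 member probe sets rose, and the share over all probe sets is not given here. Quantile normalization turned TNFRSF10D to 0.0054 (limma adjusted p = 0.928). Averaging probe sets turned TNFRSF10B, CYLD and TRADD to 0.13, -0.17 and 0.16. Leaving out the 30% dimmest genes left 25 members and 12692 genes to test. Then 11 members rose, 3 of them ligands and 8 receptors, with a median change of 0.22. Among all genes still tested 4767 rose, with a median change of 0.00015. The genes left out were dim: as deposited, 63.6% of genes below the median level rose and 27.1% of those above it. Leaving out each array in turn gave 25 to 27 members higher and 5 to 8 lower, 13 to 14 ligands higher and 0 to 1 lower, and 5 to 7 receptors lower. In these fits 38.3% to 43.8% of all genes rose and 24.4% to 27.3% fell.

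Whether equal replicate numbers pair the arrays is not stated in the labels. Deviations from the group means correlated at 0.04, 0.03 and 0.03 for equal numbers, and at -0.04 to 0.0085 for unequal ones. With the replicate block 25 members rose and 5 fell (TNFRSF17, TNFRSF10B and TNFRSF10D no longer passed), and every array correlated best with its own number in the other group, a hint from the data only. Among the signalling genes 11 rose and 20 fell with the block, and 48 member probe sets rose and 15 fell. With the block 44.6% of all genes rose and 26.4% fell, and the share over all probe sets is not given here. The cause of the other differences was not tested. Detection was not settled for the 8 members at background level, and without detection calls it was not shown for the others.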

Other observations

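Probe sets shared with a read-through or neighbouring gene were in no comparison. The 2 probe sets of TNFRSF6B, the soluble decoy of FAS ligand, which it shares with RTEL1-TNFRSF6B, read 4.02 ± 0.08 and 4.70 ± 0.14 on the Ctrl arrays and 4.18 ± 0.07 and 4.72 ± 0.09 on the CSF3 arrays (log2, SD, n = 3), and in both the groups overlapped. The 2 probe sets of TNFSF13, the B-cell ligand APRIL, shared with TNFSF12-TNFSF13, read 4.34 ± 0.07 and 2.30 ± 0.07 on Ctrl and 4.60 ± 0.07 and 2.43 ± 0.29 on CSF3. The brighter one had groups that did not overlap.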
